A study of Mus musculus with 6 samples.

Results

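The genes described here are the adult globins of the mouse and a set of red cell membrane genes, 8 genes of the 55487 in the table. They were chosen by name and function, but with earlier results of these data known, so that their calls are a description. The globins are the alpha globins Hba-a1 and Hba-a2 and the beta globins Hbb-bs and Hbb-bt. The membrane genes are the spectrin gene Sptb, the anion exchanger Slc4a1, the surface antigen gene Ermap and the Rh complex gene Rhag. The RNA came from GFP+ bone marrow cells of femora and tibiae of C57BL/6 mice, and the 6 libraries fall into 3 labelled PBS and 3 labelled pIpC. In both groups the cells derive from CD45.2(+) donors with Mx1-Cre, floxed Brd9 alleles (Brd9fl/fl) and MLL-AF9, transplanted at 1000 cells into irradiated CD45.1(+) CD45.2(-) recipients. The recipients received 3 injections of PBS or of pIpC at 20 mg/kg, and the marrow was taken 10 days after injection. pIpC is a double-stranded RNA mimic that raises interferon, which turns on Cre from the Mx1 promoter and acts on many cell types besides, so an effect of pIpC itself and of Brd9 deletion cannot be told apart in these 2 groups. MLL-AF9 is a leukemia fusion gene delivered here by a retrovirus that also carries GFP, so that GFP marks the transplanted leukemic cells. The labels do not say whether each library came from a separate recipient, so the p-values measure the spread between these samples, which may be technical.

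Hemoglobin is a tetramer of a pair of alpha and a pair of beta chains, and erythroid precursors in the marrow fill themselves with globin mRNA as they mature. The same cells build a spectrin skeleton under the plasma membrane, anchored to integral proteins such as band 3 and the Rh complex, which gives the red cell its shape and its ability to deform. Globin RNA is carried by erythroblasts and reticulocytes, and it is also a frequent trace in marrow preparations that hold some red cells. In bulk RNA, a larger share of such cells and more RNA per cell cannot be told apart.

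Library depth was similar, at 19277439 to 22378154 reads on genes in the PBS libraries and 22348517 to 23586722 in those labelled pIpC. PBS replicate 3 stood apart from the other PBS libraries, with a chi-square statistic per gene of 195.5 and 223.4 against them, compared with 7.01 between PBS replicates 1 and 2. Brd9, the targeted gene, was not lower in the libraries labelled pIpC: its normalized count was 1835 ± 176.2 (SD, n = 3) with PBS and 2103 ± 138.7 (n = 3) with pIpC, a log2 fold change of 0.20 (SE 0.13) with an adjusted p of 0.259 (limma, Benjamini-Hochberg). This whole-gene count does not check the loss of part of the gene, and the second group is therefore called the libraries labelled pIpC. The leukemia genes Hoxa9 and Meis1 fell, from 5130 ± 195.3 to 256.1 ± 28.4 (adjusted p = 1.27e-05, limma) and from 3620 ± 424.1 to 223.9 ± 16.7 (adjusted p = 1.68e-05). Xist, the RNA that coats the inactive X chromosome of female cells, was named after its values were seen and went from 46.6 ± 28.8 to 21514.7 ± 4104 (adjusted p = 4.88e-05). The groups thus differed widely beyond the 8 genes, and the part of this difference in the results below was not tested.

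All 4 globins were close to absent in the PBS libraries and well counted in every library labelled pIpC. Hba-a1 and Hba-a2 encode the alpha chain and lie on the plus strand at chr11:32283511-32284465 and chr11:32296489-32297298 (GRCm38, GENCODE M21), with 12023 bases between them and 3 exons each. Hbb-bs and Hbb-bt encode the beta chain and lie on the minus strand at chr7:103826534-103828096 and chr7:103812524-103813996, with 12537 bases between them and 3 exons each. Within each pair the coding sequences are nearly the same, with 1 base of 426 differing in the alpha pair and 1 of 441 in the beta pair (both 99.8% identical). These differences bear on how reads were divided between partners, so the bases around them in exon 3 are shown on the coding strand from the GENCODE transcripts, with the differing base in capitals. In the alpha pair the difference is C381T and in the beta pair C417T, counted from the first coding base, with the base of Hba-a1 or Hbb-bs first.
Hba-a1 chr11:32284313-32284373: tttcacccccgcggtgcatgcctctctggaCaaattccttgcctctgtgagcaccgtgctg
Hba-a2 chr11:32297130-32297190: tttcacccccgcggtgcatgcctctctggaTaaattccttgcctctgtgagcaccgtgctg
Hbb-bs chr7:103826668-103826722: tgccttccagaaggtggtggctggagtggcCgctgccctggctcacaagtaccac
Hbb-bt chr7:103812659-103812713: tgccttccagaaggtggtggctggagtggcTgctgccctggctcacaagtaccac
A read that covers none of the bases that differ, in the coding sequence or the untranslated ends, fits both partners. Of all windows of 151 bases in the transcripts, 48.3% in Hba-a1, 65.6% in Hba-a2, 58.6% in Hbb-bs and 50.6% in Hbb-bt were found unchanged in the partner, and in no other gene. Of the windows not shared, 207 of 284 in Hba-a1 and 46 of 139 in Hba-a2 ended before the stop. In Hbb-bs and Hbb-bt these were 64 of 198 and 138 of 273. The shares thus depend on the annotated ends of the transcripts as well as on the coding base. The split between partners is therefore uncertain, and the sources do not settle whether such reads were divided between partners or dropped, in which case all globin levels are too low. The 4 membrane genes shared no window with any other gene.

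Hba-a1 gave normalized counts of 1.73, 3.04 and 4.53 in PBS replicates 1, 2 and 3 and of 1664, 1041 and 1413 in the libraries labelled pIpC. These PBS values stand for 2, 3 and 4 reads per library. The mean went from 3.10 ± 1.40 (SD, n = 3) to 1373 ± 313.3 (n = 3). The ratio of the summed reads, scaled for depth, was 462.7 with a 95% counting interval from 243.5 to 1013, and the log2 fold change on log2(normalized count + 1) was 8.42 (SE 0.33) with an adjusted p of 1.77e-05 (limma, Benjamini-Hochberg). All libraries labelled pIpC lay above all PBS libraries, with replicate 1 highest and replicate 2 lowest. Hba-a2 gave 1.73, 2.02 and 4.53 with PBS and 1399, 885.8 and 1165 in the libraries labelled pIpC, again with no overlap and with the same order of the 3 libraries. Its mean went from 2.76 ± 1.54 to 1150 ± 257.1, with a ratio of summed reads of 436.1 (221.1 to 1011) and a log2 fold change of 8.31 (SE 0.35, adjusted p = 1.9e-05, limma).

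Hbb-bs gave 0.865, 1.01 and 2.26 with PBS, which is 1, 1 and 2 reads, and 1134, 679.4 and 791.0 in the libraries labelled pIpC. Its ratio was 657.5, with a wide interval from 256.5 to 2415 that reflects the few PBS reads, and its log2 fold change was 8.52 (SE 0.34, adjusted p = 1.77e-05, limma). Hbb-bt gave 2.60, 2.02 and 0 with PBS, so that PBS replicate 3 held no read of it, and 648.7, 451.6 and 515.4 in the libraries labelled pIpC. Its ratio was 326.4 (139.6 to 1006) and its log2 fold change 7.91 (SE 0.52, adjusted p = 7.19e-05, limma). In both beta globins the groups did not overlap, and replicate 1 was again the highest and replicate 2 the lowest of the libraries labelled pIpC.

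Taken as a sum, the 4 globins held 8, 8 and 10 reads in the PBS libraries, or 0.358, 0.415 and 0.471 CPM relative to all reads on genes. In the libraries labelled pIpC they held 4855, 2993 and 4017 reads, or 208.8, 133.9 and 170.3 CPM. The normalized sum was 8.78 ± 2.28 (SD, n = 3) against 3929 ± 894.7 (n = 3), and the difference of 8.65 on the log2 scale had a two-sided exact permutation p of 0.1, the smallest that 3 against 3 libraries allow. The shares within each pair varied much less than the size of the globin pool. Hba-a2 took 45.7%, 46.0% and 45.2% of the alpha reads in the libraries labelled pIpC, and the 95% Clopper-Pearson intervals of the 3 overlapped (43.9% to 47.5%, 43.7% to 48.2% and 43.3% to 47.1%). Hbb-bt took 36.4% (34.2% to 38.7%), 39.9% (37.0% to 42.9%) and 39.5% (36.8% to 42.1%) of the beta reads, also with overlapping intervals. The alpha to beta ratio, per kb of annotated transcript, was 1.80, 1.79 and 2.07 in replicates 1, 2 and 3. It was highest in replicate 3, and no interval was computed for it. The intervals cover counting error only, and the shares rest on a division of reads between near-identical partners.

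**Figure D1:**
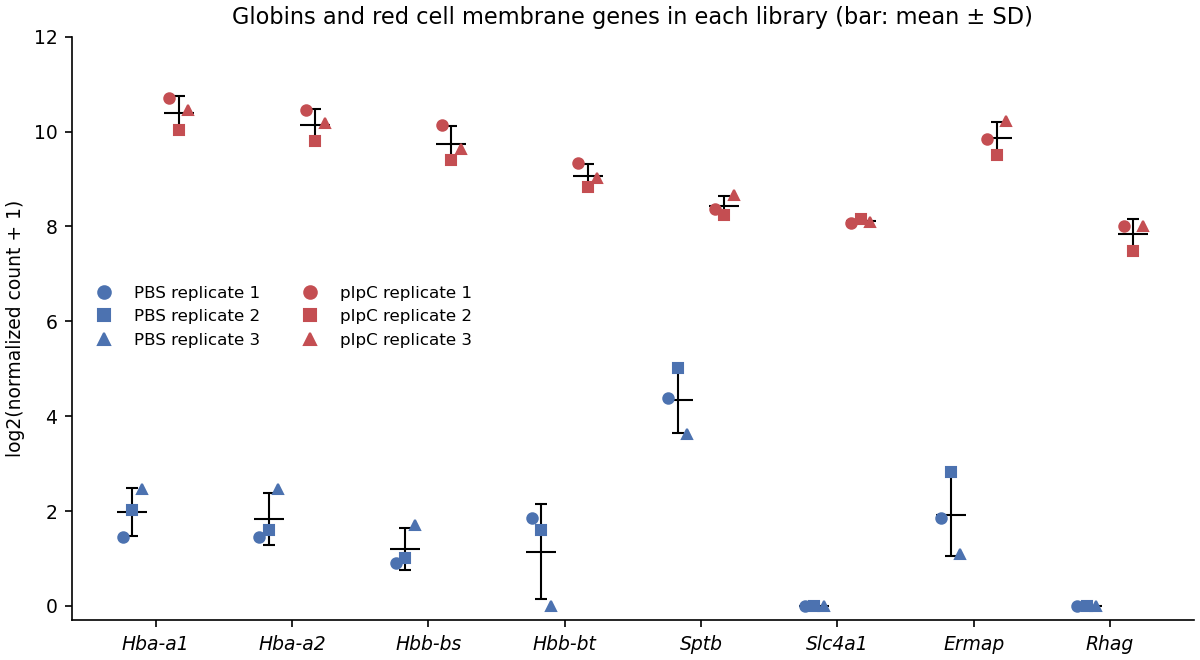
The plot shows log2(normalized count + 1) of each of the 8 genes in the 3 PBS libraries (blue) and the 3 libraries labelled pIpC (red), with symbols for the replicate and bars for the mean ± SD of the log2 values. The groups do not overlap for any gene, Sptb has the highest PBS values (19.9, 31.4 and 11.3 normalized counts), and Slc4a1 and Rhag are at 0 in every PBS library.

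The membrane genes were also higher in every library labelled pIpC, from different starting levels. Sptb (chr12:76580488-76710547, minus strand, 36 exons) encodes the erythroid beta spectrin, a chain of the spectrin lattice, and was the only one of the 8 with a PBS level that would have passed the minimum mean of 10 by itself. It gave 19.9, 31.4 and 11.3 with PBS and 330.4, 300.4 and 404.2 in the libraries labelled pIpC. The ratio was 16.4 (12.7 to 21.4) and the log2 fold change 4.08 (SE 0.37, adjusted p = 0.00027, limma), the smallest of the 8. Ermap (chr4:119175457-119190011, minus strand, 13 exons) encodes an erythroid membrane protein of the butyrophilin family that carries the Scianna blood group antigens in humans. It gave 2.60, 6.07 and 1.13 with PBS and 916.2, 730.5 and 1187 in the libraries labelled pIpC, with a ratio of 287.3 (156.0 to 599.7) and a log2 fold change of 7.94 (SE 0.46, adjusted p = 5.1e-05, limma). For Sptb and Ermap the highest of the libraries labelled pIpC was replicate 3, whereas for the globins it was replicate 1.

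Slc4a1 (chr11:102348824-102366203, minus strand, 20 exons) encodes band 3, the chloride and bicarbonate exchanger that also anchors the skeleton. It had no read in any PBS library and 267.5, 283.0 and 272.7 normalized counts in the libraries labelled pIpC, at least 91.2-fold more than a floor of 3 reads per library. Its fitted log2 fold change was 8.11 (SE 0.28, adjusted p = 1.68e-05, limma), a value that depends on the pseudocount because the PBS level is 0. Rhag (chr17:40811126-40840754, plus strand, 10 exons) encodes the glycoprotein that the Rh complex needs to reach the membrane. It too had no read with PBS, and gave 258.5, 177.8 and 258.2 in the libraries labelled pIpC, at least 76.9-fold above the same floor (fitted log2 fold change 7.84, SE 0.32, adjusted p = 1.77e-05, limma). As a sum, the 4 membrane genes went from 24.1 ± 12.6 (SD, n = 3) to 1796 ± 316.1 (n = 3), a log2 difference of 6.27 with a two-sided exact permutation p of 0.1.

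All 8 genes were thus called higher and had every library labelled pIpC above every PBS library. Of all 15020 genes tested, 25.0% were called higher, 20.4% were called lower, and 30.5% had all 3 libraries labelled pIpC above all 3 PBS libraries. For 7 of the 8 genes the minimum mean of 10 was met through the libraries labelled pIpC alone, so that those 7 had to differ in order to be tested, and their count is a description. The median log2 fold change was 8.02, or 7.92 with Slc4a1 and Rhag set at their floor bounds, against 0.01 over all genes tested. Leaving out any 1 library kept all 8 calls, with the highest adjusted p at 0.0033 for Sptb.

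Compared per kb of transcript, which corrects the normalized count for transcript length, the 4 globins were the most abundant of the 8 genes in the libraries labelled pIpC. Hba-a2 had 2076 ± 464 (SD, n = 3) normalized counts per kb, Hba-a1 1964 ± 448.2, Hbb-bs 1382 ± 377.1 and Hbb-bt 766.1 ± 143.1. The membrane genes followed with Ermap at 207.6 ± 50.5, Rhag at 98.97 ± 19.9, Slc4a1 at 60.4 ± 1.74 and Sptb at 33.2 ± 5.14. The ranges of Hba-a2 and Hba-a1 overlapped, as did those of Hba-a1 and Hbb-bs, and all further neighbours in this order had ranges apart. Without scaling by length, Hba-a1 had the higher mean of the alpha pair (1373 against 1150). Their order per kb follows from annotated transcripts of 699 bases in Hba-a1 and 554 in Hba-a2. Levels and ranks per kb of these near-identical genes thus rest on annotated lengths that differ. If reads that fit both partners were dropped, the levels of the globins are also too low, and their ranks may be too. Among the 15020 genes ranked by level per kb in these libraries, the globins stood at ranks 669, 727, 1078 and 2105, whereas Ermap, Rhag, Slc4a1 and Sptb stood at 6331, 8703, 9903 and 11146. On these values the globins were in the upper part of the distribution without being among its leading genes, and the 3 lowest membrane genes lay below its middle.

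**Figure D2:**
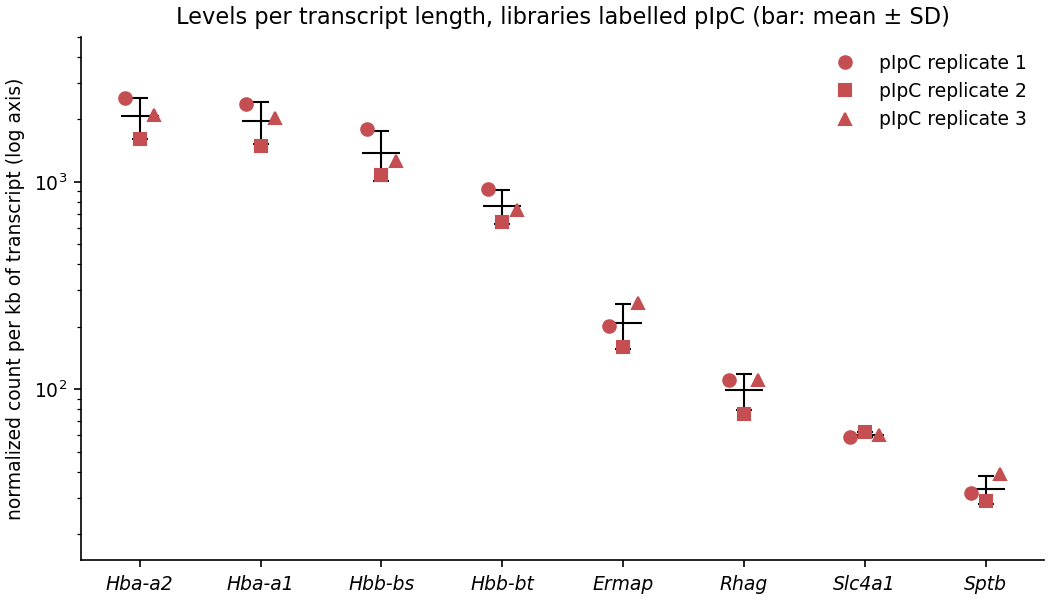
The plot shows normalized counts per kb of transcript in the 3 libraries labelled pIpC on a log axis, ordered by the mean, with bars for the mean ± SD. The 4 globins lie between 642.4 (Hbb-bt, replicate 2) and 2526 (Hba-a2, replicate 1), all above Ermap, and Sptb is the lowest at 28.9 to 38.9.

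The promoters of 7 of the 8 genes are in the RefSeq table for GRCm38.p6, all but that of Slc4a1. The 250 bases before each RefSeq start were searched on both strands for motifs known from globin promoters. A GATA site was AGATAA or TGATAA. The CACCC box was spelled CCNCNCCC. The CCAAT box was its own letters. The TATA box was spelled ATATAA. The last 120 bases before the RefSeq gene model are shown for Hba-a2, which stands for both alpha genes, for both beta genes, which differ in sequence here, and for Ermap, the most abundant of the membrane genes, with all matches in capitals.
Hba-a2 chr11:32296372-32296491, plus strand: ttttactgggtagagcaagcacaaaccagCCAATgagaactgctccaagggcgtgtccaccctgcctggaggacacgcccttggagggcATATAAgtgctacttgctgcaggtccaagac
Hbb-bs chr7:103827929-103828048, minus strand: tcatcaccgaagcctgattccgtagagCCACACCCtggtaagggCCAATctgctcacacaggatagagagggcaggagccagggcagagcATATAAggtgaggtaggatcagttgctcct
Hbb-bt chr7:103813924-103814043, minus strand: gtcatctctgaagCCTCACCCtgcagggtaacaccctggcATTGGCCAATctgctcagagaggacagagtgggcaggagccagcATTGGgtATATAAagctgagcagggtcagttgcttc
Ermap chr4:119190014-119190133, minus strand: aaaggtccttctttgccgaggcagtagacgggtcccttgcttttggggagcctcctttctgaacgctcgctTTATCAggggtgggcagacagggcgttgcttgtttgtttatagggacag
Positions are counted from the start in this table. The RefSeq gene models of Ermap and Rhag begin 18 and 50 bases before it, so the part shown of Ermap ends there, and the GENCODE genes of all 4 globins begin before it too, by 161 bases in Hba-a1, 3 in Hba-a2, 168 in Hbb-bs and 73 in Hbb-bt. The promoters of Hba-a1 and Hba-a2 were identical over all 247 bases compared, offset by 3 bases. All 4 globins had a TATA box, 23 to 31 bases before the start, and neither Ermap, Rhag nor Sptb had one, whereas 9.10% of 32851 promoters of this length held these letters. A GATA site was found in 5 of 7 promoters (Hba-a1, Hba-a2, Hbb-bs, Ermap and Rhag) and in 16.6% of all promoters. In Hba-a1, Hba-a2 and Hbb-bs it lay 178 to 210 bases before the start, outside the part shown, and in Ermap and Rhag within 67 bases of it, in Rhag inside the RefSeq gene model, so that 4 of 7 held it outside that model. Under the spelling used, a CACCC box was found in Hbb-bs, Hbb-bt and Sptb, 3 of 7, against 45.9% of all promoters. The first 2 of the 3 matches in Sptb overlap each other and do not hold the letters CACCC on either strand. Those letters do occur in the part shown of Hba-a2 and, on the other strand, in that of Ermap. The spelling does not match there, so the count does not show that these promoters lack such a box. A CCAAT box was in 6 of 7, all but Sptb, against 33.8%. A match is a run of letters and says nothing about binding.

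Other globin genes were at or near 0 in both groups. The embryonic beta-like genes Hbb-y, Hbb-bh1, Hbb-bh0 and Hbb-bh2 and the embryonic alpha-like gene Hba-x had 0 reads in all 6 libraries. Of the theta-like genes, Hbq1b had 0 reads with PBS and 8, 3 and 7 reads in the libraries labelled pIpC, and Hbq1a had 0, and 1, 1 and 0 reads. None of these 7 genes reached the minimum for testing.

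The partners of Sptb and Slc4a1 in the membrane skeleton ranged with PBS from genes near 0 to genes that were well counted. Of 12 further skeleton genes, 11 were tested, 9 rose, none fell and 2 were not called, with a median log2 fold change of 2.11. Ank1, the ankyrin that ties spectrin to band 3, went from 2.48 ± 2.17 to 373.6 ± 46.7 (log2 fold change 7.05, SE 0.63, adjusted p = 0.000237, limma). Epb42, which binds ankyrin and band 3, went from 1.89 ± 3.27 to 74.1 ± 12.1. Add2, the adducin beta chain and the highest of the list, went from 0 to 299.3 ± 84.5. In contrast, Add1, the adducin alpha chain and the most counted gene of the list, was at 2652 ± 395.1 with PBS and rose to 5647 ± 613.8 (log2 fold change 1.10, SE 0.16, adjusted p = 0.00214, limma). Mpp1, the lowest of the list, was not called (log2 fold change 0.19, adjusted p = 0.361), and neither was Epb41, protein 4.1, which links spectrin to actin (2126 ± 576.8 against 2849 ± 38.6, adjusted p = 0.143). Without PBS replicate 3 both passed the threshold, with adjusted p-values of 0.00201 for Mpp1 and 0.0137 for Epb41, and the list then had 11 of 11 higher. Calls also rose over all 15020 genes tested in that fit, from 3750 to 5186 higher and from 3058 to 4597 lower.

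Among 20 other surface antigens and transporters of the red cell, 17 were tested, of which 10 rose, 1 fell and 6 were not called, with a median log2 fold change of 1.64. Kel, the Kell antigen and the highest of the list, went from 0 to 344.1 ± 83.7, and Aqp1, the water channel, from 3.66 ± 3.48 to 948.5 ± 249.1 (log2 fold change 8.08, SE 0.75, adjusted p = 0.00028, limma). Rhd, which encodes the Rh protein that Rhag accompanies, was already present with PBS at 35.5, 61.7 and 124.5, and was 183.6, 179.8 and 261.1 in the libraries labelled pIpC (log2 fold change 1.64, SE 0.45, adjusted p = 0.0292, limma). This call was lost without pIpC replicate 3 (adjusted p = 0.112). Cd47, the most counted gene of the list and a ligand that restrains phagocytosis, was not called (10803.4 ± 1441 against 9140 ± 164.7, adjusted p = 0.237), nor was Cd59a, the lowest (log2 fold change -0.78, adjusted p = 0.135). The nucleoside transporter Slc29a1 fell by 0.48 on the log2 scale (adjusted p = 0.0615, limma), a call lost without PBS replicate 2 or any 1 of the libraries labelled pIpC (adjusted p = 0.124 to 0.197). Icam4 had 0 reads in all 6 libraries. Without PBS replicate 3, 10 were still called higher but 4 were called lower in place of 1. Over all 15020 genes tested, lower calls went from 3058 to 4597 in the same fit. A PBS mean of at least 10 was reached by 6 of the 12 skeleton genes and 12 of these 20, compared with Sptb alone of the 8.

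The paralogs of these membrane genes used outside the red cell were called at shares close to those of all genes. Of 18, 11 were tested, 3 rose, 2 fell and 6 were not called (over all genes tested, 25.0% were called higher and 20.4% lower), with a median log2 fold change of 0.41. Sptbn1, the non-erythroid beta spectrin and the most counted of the list, was at 6265 ± 2930 with PBS and 7204 ± 429.1 in the libraries labelled pIpC (adjusted p = 0.522, limma). Its log2 fold change of 0.34 turned to -0.14 without PBS replicate 3, again not called (adjusted p = 0.106, limma). Slc4a8, a sodium-coupled bicarbonate transporter of the family of Slc4a1, fell from 1933 ± 760.9 to 152.1 ± 14.6 (log2 fold change -3.59, SE 0.27, adjusted p = 0.000124), the lowest of the list, while Slc4a2 and Slc4a7 were not called (log2 fold changes 0.41 and -0.14). Without PBS replicate 3, Slc4a2 was called higher (0.19, adjusted p = 0.0413) and Slc4a7 lower (-0.57, adjusted p = 0.00109), and the sign of Slc4a7 turned without PBS replicate 1 or 2 (0.09 and 0.06). Rhcg, an ammonia transporter related to Rhag, rose from 10.6 ± 0.628 to 67.3 ± 3.36. Epb41l3, related to protein 4.1, had the highest fold change of the list at 3.39 (adjusted p = 0.000563). Without PBS replicate 3, 4 of the 11 were called higher and 4 lower, beside 5186 higher and 4597 lower of all 15020 genes tested.

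**Figure D3:**
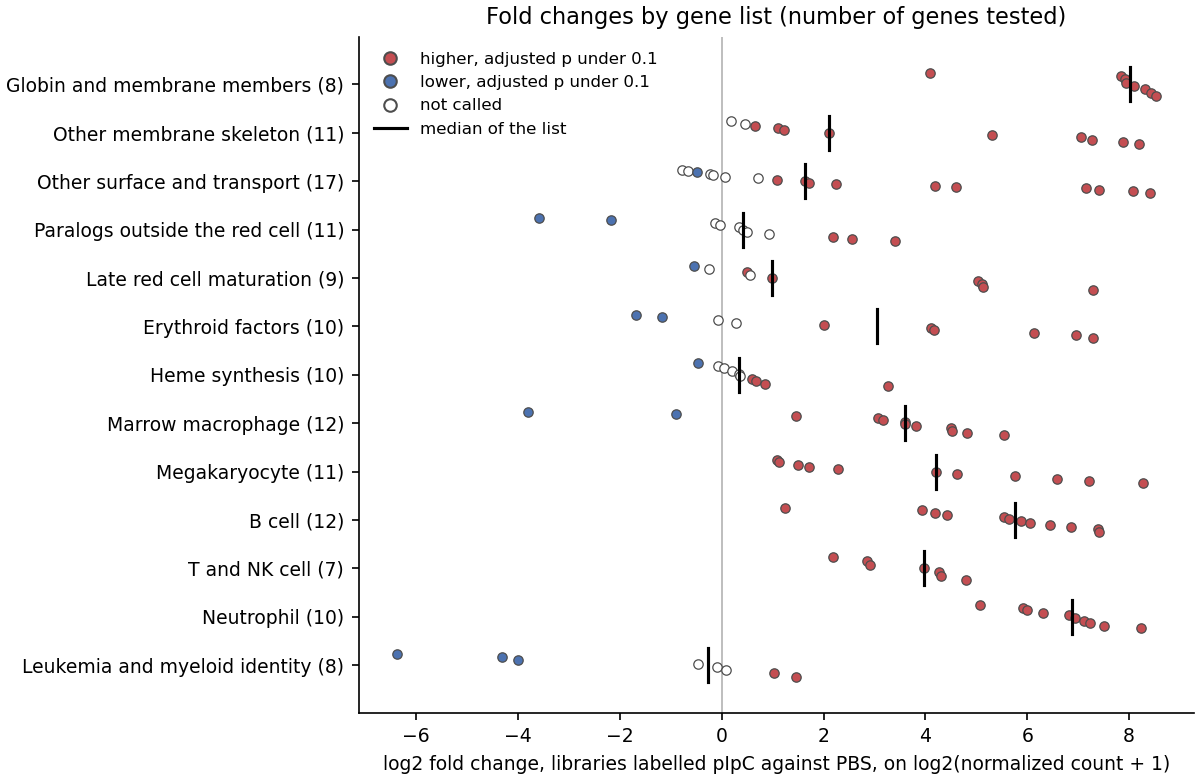
Each point is a tested gene, placed by its log2 fold change between the libraries labelled pIpC and PBS and coloured by its call (limma, adjusted p under 0.1), with a black line at the median of its list. The 8 globin and membrane genes lie between 4.08 and 8.52, the other membrane skeleton and surface genes spread from -0.78 to 8.40, and heme synthesis genes lie mostly near 0 with a median of 0.35.

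Genes that act in the same cells before and beside the globins did not all move as the globins did. Of 10 erythroid factors, 6 rose, 2 fell and 2 were not called, with a median log2 fold change of 3.05. Gata1 and Klf1, activators of globin and membrane genes, went from 13.99 ± 1.61 to 259.6 ± 46.4 and from 12.1 ± 8.13 to 213.4 ± 50.7. Tal1, which acts with Gata1 and was the highest of the list, went from 3.30 ± 0.228 to 669.0 ± 1.98 (log2 fold change 7.29, SE 0.21, adjusted p = 1.25e-05, limma). Epor, the erythropoietin receptor, went from 1.59 ± 1.52 to 162.8 ± 59.7. Lmo2, a bridging protein of the same complex, fell from 12936.4 ± 2684 to 3970 ± 327.7, and Gata2, a factor of early progenitors, from 1407 ± 183.5 to 617.9 ± 20.4. Nfe2, the most counted in the libraries labelled pIpC, was not called (log2 fold change -0.08, adjusted p = 0.824), but without PBS replicate 3 it was called higher (0.20, adjusted p = 0.0222).

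Heme, the prosthetic group that globin chains bind, is made by enzymes that most cells carry. Of 10 genes for heme synthesis and iron supply, 4 rose, 1 fell and 5 were not called, with a median log2 fold change of 0.35. Alas2, the erythroid form of the first enzyme, rose from 5.31 ± 1.54 to 59.2 ± 12.3, to 66.9, 45.0 and 65.8 in the 3 libraries labelled pIpC (log2 fold change 3.26, SE 0.34, adjusted p = 0.000473, limma). Tfrc, the transferrin receptor and the most counted of the list, rose by 0.67 (adjusted p = 0.0416, and 0.105 to 0.14 without any 1 library labelled pIpC). Fech, which inserts the iron, had a log2 fold change of -0.47 at an adjusted p of 0.0945, which did not hold in 5 of the 6 fits without 1 library (0.165 to 0.251), with a replicate block (0.155) or with median-centred values (0.128). Without PBS replicate 3, 8 of the 10 were called higher and 1 lower, beside 5186 higher and 4597 lower of all 15020 genes tested. Among 9 genes of late red cell maturation, 6 rose, 1 fell and 2 were not called, with a median of 0.98. Hemgn, an erythroid nuclear protein, was the highest (1.54 ± 1.36 to 346.5 ± 37.3). Bnip3l, which drives the removal of mitochondria, was the most counted and rose from 2976 ± 130.7 to 4190 ± 208.7. Ube2o, which clears proteins from reticulocytes, was the lowest (log2 fold change -0.54, adjusted p = 0.0306, and 0.119 or 0.129 without pIpC replicate 3 or 2). Bpgm, the enzyme that makes the hemoglobin effector 2,3-bisphosphoglycerate, was at 359.4 ± 73.3 and 297.5 ± 1.83 and was not called (adjusted p = 0.31).

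The spread of the 8 genes among the libraries labelled pIpC was larger than counting error for 7 of them. The variance of the reads over that of counting alone was 70.6 for Hba-a1, 56.8 for Hba-a2, 64.3 for Hbb-bs, 18.7 for Hbb-bt, 56.2 for Ermap, 9.24 for Rhag and 8.36 for Sptb, but 0.225 for Slc4a1. A spread beyond counting error was not confined to these genes. Averaged over genes, the chi-square statistic per gene was 19.1 between replicates 1 and 2, 17.2 between 1 and 3, and 8.93 between 2 and 3. Replicate 2 was the lowest of these libraries for 7 of the 8, all but Slc4a1, as it was for 4759 of the 15020 genes tested (31.7%). Relative to the mean of the 3 libraries, the 4 globins lay at 75.8% to 83.8% in replicate 2 and at 120.5% to 130.6% in replicate 1. Sptb and Ermap lay at 87.1% and 77.3% in replicate 2 and at 117.2% and 125.7% in replicate 3. Slc4a1 stayed within 97.5% to 103.1%.

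Markers of other marrow cells moved with the groups as well. Of 12 marrow macrophage markers, genes that include those of the macrophages of erythroblastic islands, 10 rose and 2 fell (median log2 fold change 3.59). The highest was Spic, a factor of heme-clearing macrophages (3.42 ± 2.96 to 159.4 ± 41.8), and the lowest was Adgre1, the F4/80 antigen (4307 ± 138.5 to 309.5 ± 44.5). Vcam1, the most counted, fell from 8421 ± 2115 to 4444 ± 602, and the summed level of the list overlapped between groups (11745.6 to 16525.0 with PBS, 11956.8 to 14972.0 in the libraries labelled pIpC). Their median in replicates 1, 2 and 3 was 94.7%, 74.6% and 119.9% of the mean, and replicate 2 was the lowest for 9 of the 12. It was also the lowest for 7 of the 8 globin and membrane genes, 8 of the 10 erythroid factors and 31.7% of all genes tested. Of the megakaryocyte and platelet markers, 11 of 11 tested rose, with a median of 4.21 (3.04 with genes at 0 set at their bounds) and sums of 1300 to 1700 against 3742 to 4742. They ran from Itga2b at 1.08 to Ppbp at 8.28, with Itgb3 the most counted, and replicate 3 was low (80.1%). B cell markers rose in 12 of 12, from Cd79b, also the most counted, at 1.25 to Pax5 at 7.41, with a median of 5.76 (5.59 with bounds), sums of 139.7 to 307.8 against 1609 to 3034 and replicate 1 low (62.0%). T and NK markers rose in 7 of 7 tested, from Cd4 at 2.19 to Ncr1 at 4.79, with a median of 3.97, and sums of 185.2 to 327.1 against 4007 to 4613 that were mostly Nkg7, the most counted (161.8 to 301.0 against 3702 to 4312). Neutrophil markers rose in 10 of 10, from Camp at 5.07 to Ly6g at 8.23, with a median of 6.89, Ngp the most counted, and sums of 15813.5 to 36612.8 against 2016949.6 to 2087994.9. No marker of these lists that defines its cell type was at 0 in the libraries labelled pIpC apart from Gp1bb, which had no read in replicates 1 and 2, whereas with PBS Ppbp, Gp6, Treml1, Gp1bb and Ms4a1 were at 0 in every library. Of 8 leukemia and myeloid identity genes, 2 rose, 3 fell and 3 were not called (median -0.28), from Hoxa10 at -6.39 to Itgam at 1.45, with Ptprc the most counted. A PBS mean of at least 10 was reached by 9 of the 12 macrophage, 6 of the 12 megakaryocyte and all 10 neutrophil markers. Only 2 of the 12 B cell and 1 of the 10 T and NK markers reached it. The other markers tested met the minimum only through the libraries labelled pIpC, so their rise was largely set beforehand and these counts are a description. Of all genes tested, 25.0% were called higher. The part of these cell types in the globin and membrane values was not tested.

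**Figure D4:**
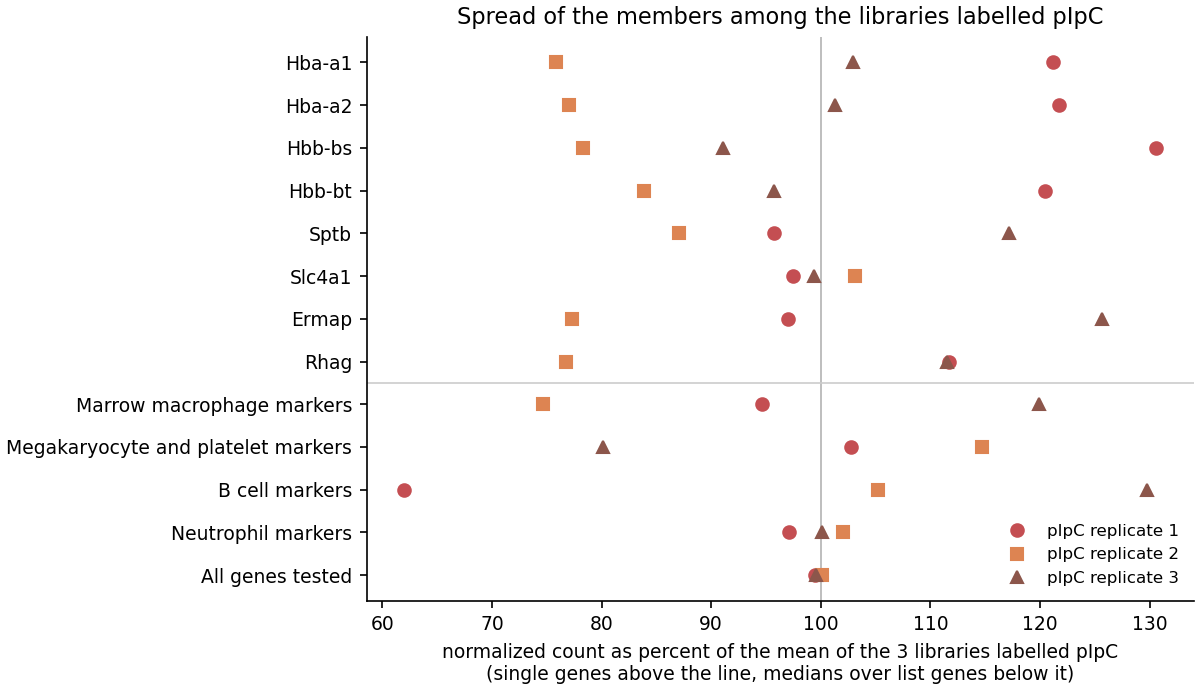
The plot shows each of the 8 genes in the 3 libraries labelled pIpC as a percent of its mean over them, and below the line the median over genes of 4 marker lists and of all genes tested. Replicate 2 is the lowest for 7 of the 8 genes and for the macrophage markers (74.6%), replicate 1 is the highest for the globins and the lowest for B cell markers (62.0%), and all genes tested lie at 99.5% to 100.1%.

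The genes whose profile over the 6 libraries lay nearest to the median profile of the 8 included Add2, Btnl10, Pklr and Fcer1a. The measure was the root mean square difference of log2(normalized count + 1), centred on the 6 libraries, and it was 0.19, 0.21, 0.23 and 0.24, compared with a median of 3.997 over 15012 genes. That median mainly reflects the step of the 8 between groups, since genes without such a step lie far from their profile. Nearness thus mostly selects genes with a rise of similar size. All 4 of the genes named had no read in any PBS library. Add2 is the adducin gene described above, and Pklr, the pyruvate kinase of red cells and liver, gave 246.5, 156.3 and 339.4 in the libraries labelled pIpC. Btnl10, a butyrophilin-like gene of the wider family of Ermap, gave 194.6, 163.5 and 235.9. Fcer1a, the alpha chain of the IgE receptor of mast cells and basophils, gave 232.5, 238.1 and 189.5, and unlike the others was highest in replicate 2.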

How the data were processed

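RNA-seq libraries of 2 groups of 3 were compared. The authors deposited a table of normalized counts, treated here as a signal. Its pipeline is uncertain: the processing notes in the labels name HISAT2 (2.2.1), SAMtools, featureCounts of Subread, edgeR and GRCm38, whereas the methods of the study name STAR, RSEM, mm10 and normalization with DESeq2. This bears on the globins, since featureCounts drops reads that fit both partners by default and RSEM divides them. The sources also differ on the cells (GFP+ marrow in the labels, lineage-negative c-Kit+ cells in the methods) and on strandedness.

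Whole reads were recovered, since all values above 0 (100% in each column, within 0.01 of a read) were multiples of a smallest step. limma (3.58.1, R 4.3.3, intensity trend) was run on log2 values after adding 1, which understates the change of low genes, for the 15020 genes whose 6-library mean reached 10, with Benjamini-Hochberg adjustment and a threshold of 0.1. Ratios of summed reads carry 95% intervals for counting error, and genes without PBS reads were set against 3 reads per library. Sums had a two-sided exact permutation test. Levels per kb used GENCODE M21 transcript lengths. Tables were made with Python (3.11.15) and SciPy (1.17.1). The limma script was tested on simulated data.

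Alternatives were pseudocounts of 0.1 and 10, filters at 0 and at 50, median-centred or quantile-normalized values, each library left out, a replicate block, no intensity trend, edgeR (4.0.16) or DESeq2 (1.42.0) on the recovered reads, and a threshold of 0.05. Same-numbered libraries did not deviate together (correlations of -0.12, 0.14 and 0.04), so no pairing was used.

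The 8 genes and the gene lists, written from general knowledge, were chosen with earlier results of these data known. The genes named are the 8, Brd9, the highest, lowest and most counted gene of each list, red cell genes named for their role, and the nearest profiles by rank (of the first 5, 4 are named). Hoxa9, Meis1, Xist and the markers at 0 were added to describe the groups. Ahsp and protein sequences were not analysed here, and some genes that the rule would name are not reported here.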

Additional observations from a re-analysis of the deposited data

How the results depend on the processing

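All 8 genes kept their direction and their call in every alternative run, with log2 fold changes from 3.57 to 11.42 and adjusted p-values up to 0.0033, over 136 comparisons. For 7 of the 8 the direction was largely set beforehand, since they met the minimum mean through the libraries labelled pIpC alone. The alternative runs could therefore hardly have changed it. The widest values came from genes with no PBS read, whose fitted change depends on the prior count. The replicate block changed no call among the 8 (adjusted p up to 0.00118 for Sptb). With it 6095 genes were called, compared with 6808 without it, and the summed globin and membrane levels then had an exact sign-flip permutation p of 0.25, the smallest that 3 pairs allow. The number of genes called ran from 4650 (without pIpC replicate 2) to 9783 (without PBS replicate 3), with 6901 by edgeR and 7451 by DESeq2. Quantile normalization turned the split of calls, from 3750 higher and 3058 lower to 3244 higher and 4078 lower, and moved the median of all genes to -0.12, which is small beside the changes of the 8. Brd9 stayed uncalled (log2 fold change 0.06 to 0.24). With 0 to 6 PBS reads per library for 7 of the 8 genes, depth limits the size of the ratios, not their direction.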
